A study of Homo sapiens with 4 samples.

Results

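Long intergenic non-coding RNAs named LINC and a number were read out in SKBR3, a HER2-positive line of breast cancer, with and without overexpression of VIRMA. The members were the rows whose symbol is LINC followed by digits only and whose counts summed to at least 200 over the 4 libraries. They numbered 135 of 967 rows with such a name and of 56271 rows in all. The members were thus chosen by their measured counts, summed over both groups, and their presence above that floor is no result.

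VIRMA is the scaffold of the nuclear complex that adds N6-methyladenosine (m6A) to transcripts, and the comparison asks which transcripts differ when it is raised. Both groups carried a FUW lentiviral vector. The 2 eGFP control libraries came from cells with eGFP downstream of the ubiquitin C promoter, and the 2 VIRMA-overexpressing libraries from cells with HA-tagged full-length VIRMA joined to eGFP through p2A. Cells positive for eGFP were sorted and grown as pools, so VIRMA and any other difference between the pools cannot be told apart. The culture text on all 4 libraries describes a hypoxia chamber and a protein lysate. The paper gives its hypoxia step for protein lysates and names none in its mRNA-sequencing method. The labels leave the oxygen level of these RNA samples uncertain.

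LINC is a naming scheme, not a family. The genes are not grouped by sequence or function, and the name was given to transcripts with no long open reading frame that lay between protein-coding genes. Long non-coding RNAs are transcribed and spliced much like mRNAs, many stay in the nucleus at low copy number, and some act on the gene next to them. m6A is placed on such transcripts as it is on mRNAs, often at GGACT, and can alter how long an RNA lasts.

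The label holds in part for these 135 genes. RefSeq gave 119 of them as lncRNA and 12 as protein-coding genes, and the other 4 were in another class or in none. A different current symbol was found for 30, among them CYTOR for LINC00152, CHASERR for LINC01578, MTLN for LINC00116 and NBDY for LINC01420. In GENCODE, 100 overlapped no protein-coding gene other than one the row itself matched, and 35 overlapped another. Of these 35, 15 overlapped one on the same strand and 23 one on the opposite strand. The 100 include LINC00950, LINC00176 and LINC01125, which themselves match protein-coding genes. A protein-coding gene other than the matched one lay within 10 kb of 74. Members were found on 22 chromosomes and had 428 to 18352 exonic bases, with a median of 2794. They had a median of 5 exon blocks, and 16 had a single exon.

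To show what these loci look like, 2 sets of sequence are printed. The first is the 300-base RefSeq window around the start of 2 members (GRCh38.p14), from 250 bases before to 50 after it. LINC00894, now EOLA2-DT, starts at 149938628 in the count table, 72 bases from the start of its protein-coding neighbour EOLA2. Its window, chrX:149938298-149938597 on the plus strand, is set by a different start in RefSeq and ends before that position. LINC00116, now MTLN, has the window chr2:110212498-110212797 on the minus strand, with a match to TGATGNAA in capitals.
LINC00894: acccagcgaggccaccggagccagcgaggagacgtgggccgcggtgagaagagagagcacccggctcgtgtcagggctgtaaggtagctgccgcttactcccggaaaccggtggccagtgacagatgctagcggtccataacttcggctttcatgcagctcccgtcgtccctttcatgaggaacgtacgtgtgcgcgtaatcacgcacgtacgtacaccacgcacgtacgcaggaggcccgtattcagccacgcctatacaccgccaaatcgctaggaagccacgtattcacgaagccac
LINC00116: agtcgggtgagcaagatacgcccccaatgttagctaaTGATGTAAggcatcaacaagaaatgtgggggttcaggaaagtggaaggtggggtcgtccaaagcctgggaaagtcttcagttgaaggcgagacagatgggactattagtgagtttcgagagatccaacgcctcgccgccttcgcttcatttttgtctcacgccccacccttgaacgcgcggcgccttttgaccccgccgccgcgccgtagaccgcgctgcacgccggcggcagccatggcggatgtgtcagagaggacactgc

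The second set is the GGACT letters, in capitals, with up to 10 exonic bases on each side (hg38). They are shown for the 2 genes with the highest and the lowest GGACT density among the 14 members that rose past both thresholds given further on. LINC01376 held 5 in its exons, or 1.69 per kb, and 4 of them are printed. LINC01355 held 1, or 0.18 per kb. Whether any of these letters carry m6A was not measured here.
LINC01376, chr2:18986589-18986613, minus strand: gaccatggaaGGACTgggcttgatc
LINC01376, chr2:18987063-18987087, minus strand: aggatacaatGGACTagttccttga
LINC01376, chr2:19125315-19125339, minus strand: aatcttctttGGACTtctttttgct
LINC01376, chr2:19346703-19346727, minus strand: ggtgcgatcaGGACTcattgcatcc
LINC01355, chr1:23286148-23286172, minus strand: cttttaccaaGGACTagcctacagg

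The libraries held 81446932 to 86375474 counts. VIRMA, listed under its older symbol KIAA1429 (chromosome 8, 94487693 to 94553529, minus strand), was at 710 and 682 counts in eGFP control and 3437 and 3460 in VIRMA-overexpressing cells, a 4.83-fold difference (log2 fold change 2.27, SE 0.0662, edgeR adjusted p 9.59e-17). Replicates differed by more than sampling noise, at 7.16 and 5.74 chi-square per degree of freedom. The 8 epithelial markers of the line summed to 26483.5 and 26137.8 CPM (counts scaled to library size after TMM) in the controls and to 23321.6 and 23525.3 in the VIRMA-overexpressing libraries, lower in both. Markers of other cell types were also lower in both, but rest on few genes, since 1 gene of each of the 3 lists reached the summed count of 200. The 7 erythroid genes summed to 28.1 and 20.4 CPM in the controls and to 0.476 and 0.321 in VIRMA-overexpressing cells, and 6 fibroblast genes to 13.8 and 13.5 against 8.38 and 8.96. The 8 leukocyte genes summed to 3.28 and 2.19 against 1.55 and 1.70 CPM, with MS4A1 at 0 in all 4. Their part in the results was not tested. In bulk libraries, fewer cells that express a gene and less RNA per cell cannot be told apart.

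LINC genes took a larger share of the counts in VIRMA-overexpressing cells. The 135 members held 63754 and 63929 counts in eGFP control and 76789 and 74665 in VIRMA-overexpressing cells, which were 0.0747% and 0.0740% against 0.0926% and 0.0917% of all counts. After TMM scaling their summed level was 769.6 CPM in both controls, 890.9 in VIRMA-overexpressing replicate 1 and 888.7 in replicate 2. They held 96.2% of the counts of all LINC-named rows. Of the 832 LINC rows below the floor, 463 had no read in any library and 369 had at least 1 but fewer than 200.

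Most members were scarce. The mean level over the 4 libraries, in RPKM (counts scaled by library total and per kilobase of exon), had a median of 1.01 and ran from 0.0576 to 36.2. It was below 1 for 67 genes and above 10 for 6. The 6 with the highest level included 4 that encode small proteins. At the floor, the 3 genes just inside were LINC00853 (sum 201), LINC01611 (202) and LINC00921 (205), and the 3 just outside were LINC00284 (189), LINC00654 (188) and LINC01119 (185).

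LINC00493, now SMIM26, which encodes a small mitochondrial membrane protein, had the highest level, at 36.9 and 35.0 RPKM in the controls and 37.5 and 35.5 in VIRMA-overexpressing cells. The groups overlapped on that scale but not in CPM after TMM, and the fit gave no call (log2 fold change -0.08, SE 0.0504, edgeR adjusted p 0.17). LINC00116 followed at 25.9 and 26.8 RPKM in the controls and 18.1 and 20.5 in VIRMA-overexpressing cells. LINC00106, a lncRNA gene near ASMTL on chromosome X, came next, with 14.3 and 12.6 RPKM against 20.8 and 20.7. LINC01420 and LINC00998 averaged 13.1 and 11.9 RPKM. LINC01503 went from 6.77 and 7.40 RPKM in the controls to 13.3 and 13.6, the largest log2 fold change among the 8 genes with the highest level (0.83, SE 0.0762, edgeR adjusted p 6.92e-09). LINC00265 was also higher, at 6.91 and 6.83 against 10.4 and 9.52 RPKM. LINC00674 was at 9.37 and 8.28 against 11.0 and 10.5 RPKM. Its log2 fold change with TMM was 0.18 (edgeR adjusted p 0.157), so that the gene did not pass. With library totals it was at 0.28 and passed (edgeR adjusted p 0.0314).

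**Figure D1:**
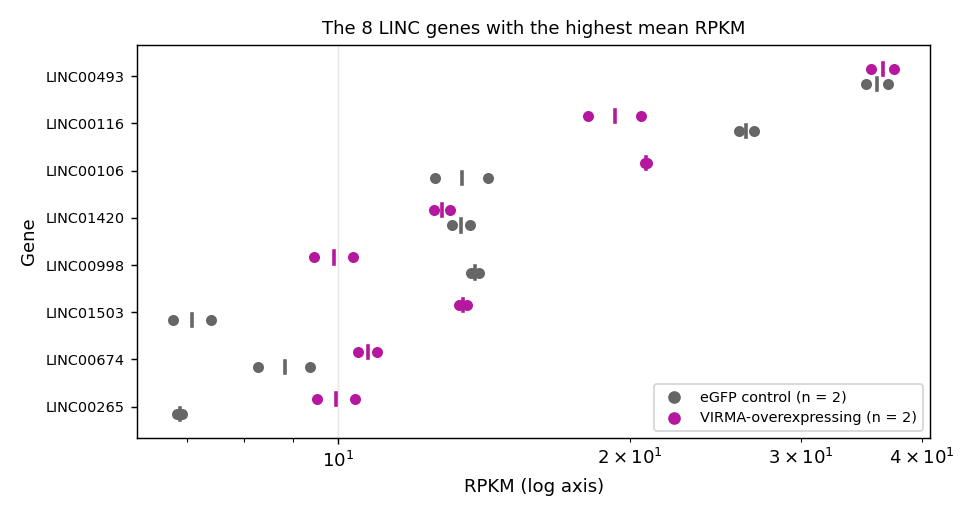
Level in RPKM (log axis) of the 8 LINC genes with the highest mean, 1 point per library with eGFP control in grey and VIRMA-overexpressing in magenta (n = 2 each) and a bar at each group mean. LINC00493 is the highest at about the same level in both groups, LINC00116 and LINC00998 are lower in the VIRMA-overexpressing libraries, and LINC00106, LINC01503 and LINC00265 are higher.

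Across the 135 genes, the higher ones outnumbered the lower ones under VIRMA overexpression. Past both thresholds of the study (an adjusted p under 0.05 with a log2 fold change over 1 in either direction), 14 were higher, or 10.4%, where 4.93% of all 14974 rows tested were, and 5 were lower, or 3.70%, where 3.59% of all rows were. At the adjusted p alone, 55 were higher, or 40.7%, against 32.5% of all rows, 21 were lower, or 15.6%, against 33.1%, and 59 did not pass. Both VIRMA-overexpressing libraries lay above both controls in 71 genes and below both in 35, where 41.7% and 40.5% of all rows did (82.2% together), and the groups overlapped in 29. Under the study's minimum of RPKM above 1, taken here as reached in at least 2 libraries, which kept 74 members, 8 were higher and 1 lower, where 4.52% and 2.93% of the 12205 rows it kept were, and 8 of these 9 genes passed that filter through 1 group alone. The median log2 fold change was 0.29, with an interquartile range of -0.17 to 0.64, and over all rows it was 0.018.

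These values differed with the abundance of the genes. With summed counts from 200 to under 1000, 7 of 75 members were higher past both thresholds (9.33%) and 5 lower (6.67%), while among all rows in that range 11.3% were higher and 6.09% lower, and the median log2 fold change was 0.21 for both. With 1000 to under 5000 counts, 7 of 45 members were higher (15.6%), against 4.81% of all rows, and the medians were 0.47 and 0.11. None of these 45 fell past both thresholds in edgeR, DESeq2 or limma-voom, where 3.58% of all rows in that range were lower, and 8 were lower at an unadjusted p below 0.05. Of the 15 members with 5000 or more counts, none passed both thresholds in any of the 3 tools, where 2.00% of all rows of that abundance were higher and 2.42% lower, so this count of 15 genes is not a result about the members. At the unadjusted p 9 of the 15 were higher and 5 lower. Their median was 0.34, against -0.08 for all rows of that abundance. In the lowest range the members' shares were near those of all rows.

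**Figure D2:**
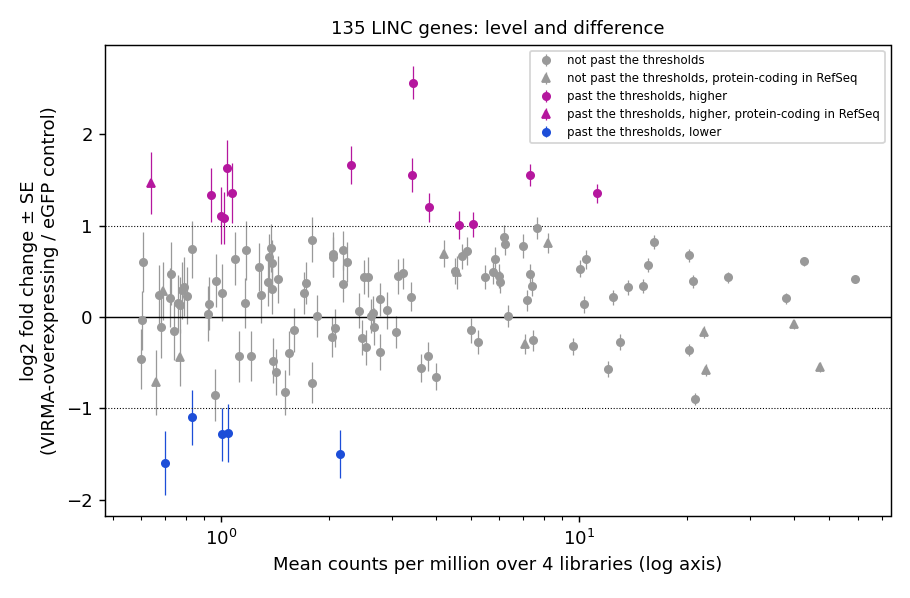
Log2 fold change with its standard error (VIRMA-overexpressing over eGFP control) against mean CPM over the 4 libraries (log axis) for the 135 LINC genes, with dotted lines at 1 and -1. The 14 genes higher past the thresholds are magenta, the 5 lower ones blue, the rest grey, and triangles mark the 12 genes that RefSeq gives as protein-coding. The called genes all have a mean below 12 CPM.

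LINC00824 (chromosome 8, 128405269 to 128564679, minus strand) had the largest difference. It had 92 and 73 counts in eGFP control and 501 and 503 in VIRMA-overexpressing cells, which is 0.995 ± 0.164 and 5.90 ± 0.123 CPM (mean ± SD, n = 2). This was a 5.92-fold difference (log2 fold change 2.57, SE 0.182, edgeR adjusted p 1.16e-10). It overlaps no protein-coding gene, and the nearest one, MYC, lies 662318 bases away and was at -0.42.

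LINC01376 (chromosome 2, 18986451 to 19346748, minus strand), which lies 4737 bases from the transcription factor gene OSR1, had 103 and 81 counts in eGFP control and 313 and 286 in VIRMA-overexpressing cells. It was 3.17-fold higher (log2 fold change 1.66, SE 0.211, edgeR adjusted p 7.07e-07). LINC00174 (chromosome 7, 66376044 to 66401338, minus strand) counted 337 and 277 reads against 932 and 925, or 2.95-fold more (log2 fold change 1.56, SE 0.12, edgeR adjusted p 4.08e-10). The groups were far apart for both genes. LINC00174 overlaps TPST1, a tyrosylprotein sulfotransferase gene on the opposite strand, which had 109 and 69 counts in eGFP control and 32 and 54 in VIRMA-overexpressing cells (log2 fold change -1.08, edgeR adjusted p 0.00964). Whether the counting used strand is not stated, so reads of such a pair cannot be assigned with certainty.

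LINC00662 (chromosome 19, 27684580 to 27793940, minus strand), a lncRNA described in several cancers, was the most abundant of the 14. Its counts were 512 and 534 in the controls and 1549 and 1204 in VIRMA-overexpressing cells, from 6.30 ± 0.176 to 16.2 ± 2.57 CPM (log2 fold change 1.36, SE 0.105, edgeR adjusted p 4.60e-10). The VIRMA-overexpressing replicates differed more from each other than the controls did, but neither came near them. The nearest protein-coding gene, UQCRFS1, lies 1411380 bases away.

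LINC00894 (chromosome X, 149938628 to 150224580, plus strand) and LINC00893 (chromosome X, 149527591 to 149540959, minus strand), now EOLA2-DT and EOLA1-DT, are divergent transcripts of a pair of related protein-coding genes, and both rose. LINC00894 had 116 and 172 counts in eGFP control and 450 and 417 in VIRMA-overexpressing cells (log2 fold change 1.55, SE 0.186, edgeR adjusted p 3.18e-07). LINC00893 had 202 and 181 against 484 and 422 (log2 fold change 1.20, SE 0.158, edgeR adjusted p 1.17e-06). The 2 rows are not independent: of the 50-base words in the exons of LINC00893, 35.3% also occur in LINC00894, and 19.9% the other way, so reads could be split between them. LINC00893 also overlaps a protein-coding annotation on its own strand.

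The other higher members were of low count. LINC00598, next to FOXO1 on chromosome 13 and with 18352 bases the longest member, had 38 and 46 counts in eGFP control and 110 and 157 in VIRMA-overexpressing cells (1.63). LINC00950, which RefSeq now places in the protein-coding gene TMEM8B, had 31 and 25 against 90 and 70 (1.47). LINC01105, now SILC1, 231302 bases from SOX11, had 67 and 33 against 148 and 116 (1.36). The gap between its control replicates was wide, and without eGFP control replicate 2 its log2 fold change was 0.94, under the threshold. LINC00886 had 48 and 40 against 118 and 111 (1.34). LINC01144 had 68 and 37 against 121 and 112 (1.11), and without eGFP control replicate 2 it was at 0.74 (edgeR adjusted p 0.0568). LINC01607, next to the transcription factor gene HEY1, had 52 and 57 against 119 and 118 (1.08).

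LINC01355 and LINC00467 lay at the fold threshold. LINC01355 had 248 and 308 counts in eGFP control and 582 and 571 in VIRMA-overexpressing cells (1.02), and without eGFP control replicate 1 it was at 0.87. LINC00467, described in colorectal and other cancers, had 261 and 250 against 466 and 587 (1.01), and it was at 0.97 without eGFP control replicate 2 and 0.81 without VIRMA-overexpressing replicate 2. In both genes the groups did not overlap. When the difference was itself tested against 2-fold with edgeR, LINC00824, LINC01376, LINC00174, LINC00894 and LINC00662 passed. No lower member did, and 2 were lower than 2-fold at an unadjusted p below 0.05.

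All 5 lower members had fewer than 300 counts in each library. LINC01419 (chromosome 8, 83403758 to 83408900, plus strand) had 78 and 97 counts in eGFP control and 22 and 37 in VIRMA-overexpressing cells, 3.03-fold lower (log2 fold change -1.60, SE 0.347, edgeR adjusted p 4.34e-04). LINC01405 (chromosome 12, 110936585 to 110958208, plus strand), near the myosin light chain gene MYL2, had 232 and 295 against 64 and 126 (log2 fold change -1.50, SE 0.263, edgeR adjusted p 4.42e-05). Its VIRMA-overexpressing replicates were 0.741 and 1.50 CPM, below both controls but well apart from each other. Leaving out 1 library in turn moved its log2 fold change between -2.09 and -1.08.

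LINC00337, now ICMT-DT (chromosome 1, 6236240 to 6239444, plus strand), had 126 and 112 counts in eGFP control and 45 and 55 in VIRMA-overexpressing cells (log2 fold change -1.28, SE 0.293, edgeR adjusted p 6.93e-04). LINC01270 had 114 and 132 against 69 and 36 (-1.27), and without VIRMA-overexpressing replicate 2 it was at -0.89. LINC01558 had 86 and 102 against 47 and 43 (-1.10), and without eGFP control replicate 2 it was at -0.97. LINC01270 lies 100052 bases from CEBPB, which encodes a basic leucine zipper transcription factor and was at 0.75, and LINC01558 lies 30034 bases from AFDN, which was at 0.63, so both lower members had a higher nearest gene.

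**Figure D3:**
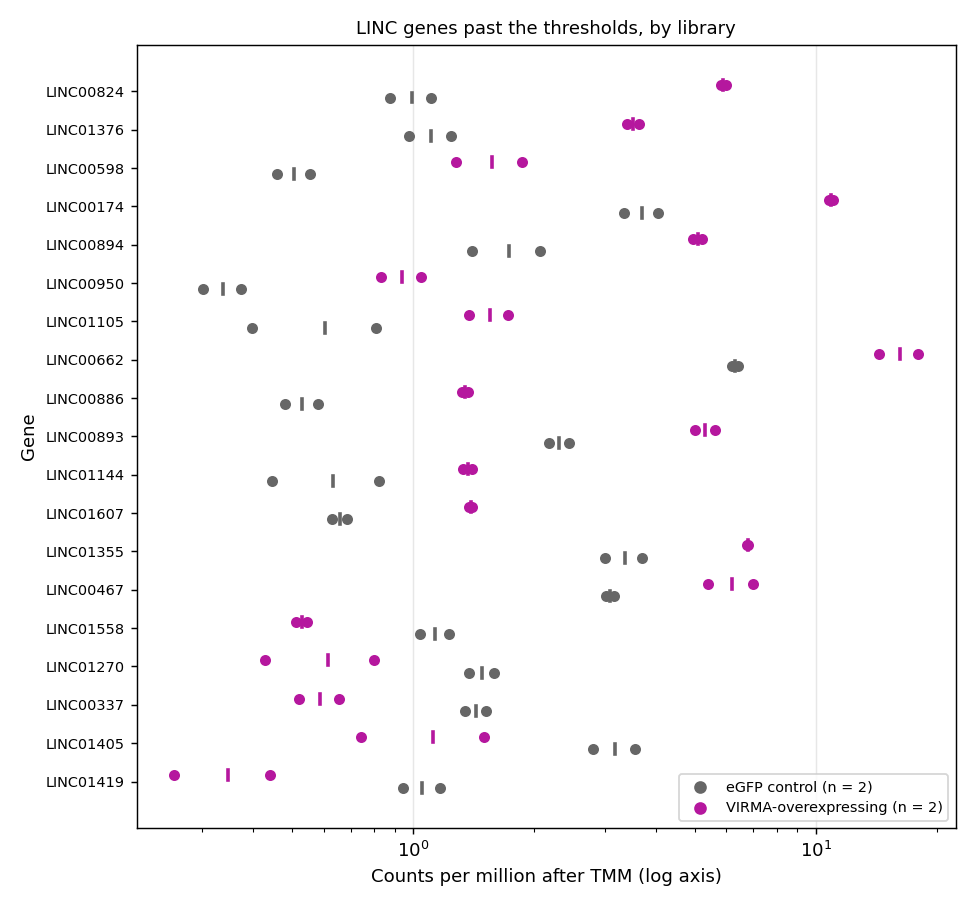
CPM after TMM scaling (log axis) of the 19 LINC genes past the thresholds, 1 point per library with eGFP control in grey and VIRMA-overexpressing in magenta (n = 2 each) and a bar at each group mean, ordered by log2 fold change. The groups do not overlap in any of the 19, which the thresholds favour, and LINC01105, LINC01405 and LINC01270 have a wide gap between replicates of a group.

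Some members lay under the fold threshold at a small adjusted p. LINC00294 (chromosome 11), within the annotated span of TCP11L1, was the closest on the lower side. It had 2252 and 2306 counts in eGFP control and 1329 and 1183 in VIRMA-overexpressing cells (log2 fold change -0.90, SE 0.068, edgeR adjusted p 3.33e-10). TCP11L1 was at -0.77 on the same strand, so their reads may overlap. LINC00482 was the closest on the higher side, with 474 and 382 counts against 915 and 810 (log2 fold change 0.97, SE 0.119, edgeR adjusted p 4.34e-07). It was past the fold threshold with upper-quartile factors (1.03), with library totals (1.07), without eGFP control replicate 1 (1.14) and without VIRMA-overexpressing replicate 2 (1.04). LINC00969, now MIR570HG, had 2876 and 2692 against 4327 and 4403 (0.61). It overlaps the protein-coding gene MUC20 on the same strand, which was at 0.89, so their reads may overlap too. LINC00641 had 1250 and 1336 against 2263 and 1986 (0.68). Each of these 4 LINC genes had groups that did not overlap.

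The list of 8 LINC names known to encode small proteins gave 5 members. At the adjusted p 4 of the 5 fell, where 33.1% of all rows did, and none was past the fold threshold. LINC00493, LINC00116, LINC00998 and LINC01420 each had more than 5000 summed counts, and 46.6% of all rows with 5000 or more were lower. LINC00998, now SMIM30, a small membrane protein gene of the endoplasmic reticulum, had 2263 and 2248 counts in eGFP control and 1629 and 1460 in VIRMA-overexpressing cells (log2 fold change -0.58, SE 0.0652, edgeR adjusted p 1.17e-07). LINC00116, whose product mitoregulin sits in the inner mitochondrial membrane, had 4534 and 4755 against 3080 and 3432 (log2 fold change -0.55, SE 0.055, edgeR adjusted p 2.42e-08). These 2 passed under every scaling and with each library left out. LINC00094, now BRD3OS, was at -0.30 (edgeR adjusted p 0.0237) and LINC01420, now NBDY, which encodes a component of mRNA-decapping bodies, at -0.17 (edgeR adjusted p 0.0284). Neither of these passed with upper-quartile factors, with library totals, without eGFP control replicate 2 or without VIRMA-overexpressing replicate 2. LINC00493 was the fifth.

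The 12 members that RefSeq gives as protein-coding had a median log2 fold change of -0.12, and the 119 given as lncRNA one of 0.33. At the adjusted p, 4 of the 12 were higher and 4 lower, shares near the 32.5% and 33.1% of all rows. Among the 119, 50 were higher (42.0%) and 16 lower (13.4%). The higher ones among the 12 included LINC00950 and LINC00176, now C20orf204, which had 450 and 538 counts in eGFP control and 927 and 850 in VIRMA-overexpressing cells (0.81, edgeR adjusted p 1.89e-06). The 12 had a median summed count of 1956.5 and the 119 one of 832, so the groups differ in abundance. No test was made between them.

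The list of 16 LINC names with described roles in cancer or chromatin gave 9 members. At the adjusted p, 4 were higher and 3 lower, where 32.5% and 33.1% of all rows were, so that the lower share was near that of all rows. LINC00662 and LINC00467, described above, were past the fold threshold. LINC00963, with the highest count of all members, had 4029 and 4342 counts in eGFP control and 5702 and 5775 in VIRMA-overexpressing cells (log2 fold change 0.42, SE 0.0448, edgeR adjusted p 6.30e-08). LINC01578, now CHASERR, which restrains its neighbour CHD2, had 2965 and 2888 against 3259 and 3654 (log2 fold change 0.20, edgeR adjusted p 0.00506). Without VIRMA-overexpressing replicate 2, LINC01578 was at 0.10. CHD2 was also higher (log2 fold change 0.43, edgeR adjusted p 5.51e-09), and a link between these genes was not tested. LINC00665 had 425 and 382 against 276 and 251 (-0.65, edgeR adjusted p 8.09e-04), and LINC00857 had 1256 and 1140 against 862 and 795 (-0.57, edgeR adjusted p 8.85e-06). LINC00152, now CYTOR, a cytoplasmic lncRNA linked to proliferation, had 1242 and 1131 against 1051 and 964 (-0.27, edgeR adjusted p 0.00743). It did not pass with library totals, without eGFP control replicate 1 or without VIRMA-overexpressing replicate 2. LINC00339 (0.14, edgeR adjusted p 0.192) and LINC00511 (0.21, edgeR adjusted p 0.57, at 48 to 75 counts per library) did not pass. With library totals LINC00339 was at 0.24 and passed (edgeR adjusted p 0.0270).

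Antisense-named and clone-named lncRNA genes at the same floor also had more higher than lower genes past the thresholds. Of 315 genes with an antisense name (a symbol ending in AS and a number), 35 were higher past both thresholds and 3 lower, with a median log2 fold change of 0.33. Of 1081 lncRNA genes with a clone name, 150 were higher and 31 lower, with a median of 0.35. The 11759 protein-coding genes had 396 higher and 460 lower, and a median of -0.04. The 18 snoRNA host genes named SNHG had 1 lower past both thresholds and a median of 0.03. As shares, 10.4% of LINC, 11.1% of antisense-named, 13.9% of clone-named and 3.37% of protein-coding genes were higher, and 3.70%, 0.952%, 2.87% and 3.91% were lower. The classes differ in abundance, with median summed counts of 855, 638, 475 and 7595 in the same order. With summed counts from 200 to under 1000, 9.33% of LINC and 8.88% of protein-coding genes were higher, and 6.67% and 9.59% lower. With 1000 to under 5000, 15.6% and 3.94% were higher, and 0% and 4.04% lower. With 5000 or more, 0% and 1.82% were higher, and 0% and 2.51% lower. No test was made between the classes.

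**Figure D4:**
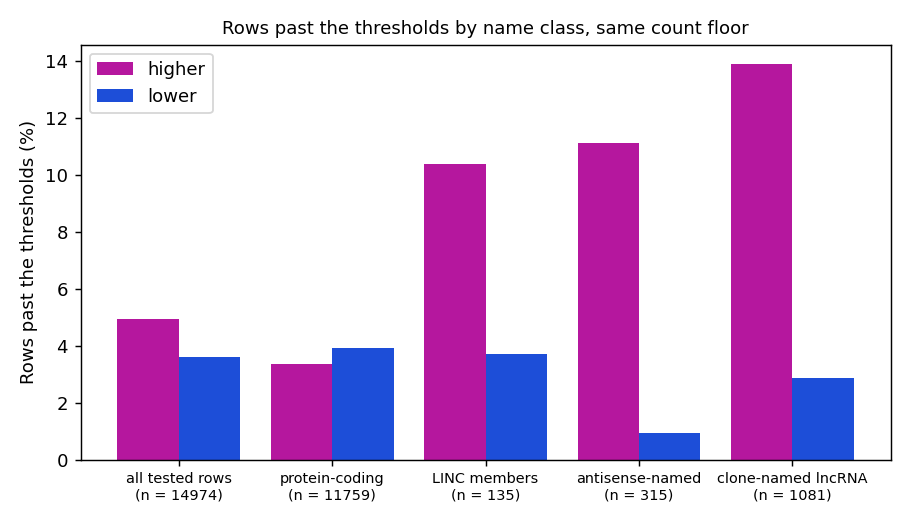
Percent of genes past both thresholds, higher (magenta) and lower (blue) with VIRMA overexpression, for all tested rows, protein-coding genes, the LINC genes, antisense-named genes and clone-named lncRNA genes with a summed count of at least 200. The 3 lncRNA name classes had 10.4% to 13.9% of their genes higher, and protein-coding genes 3.37%. The classes differ in abundance, and no test was made between them.

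Some LINC genes share a start region with a protein-coding gene. In 20 members, the start lay within 1 kb of a protein-coding start on the opposite strand, and all 20 partners were tested. The signs of the 2 log2 fold changes were the same in 14 of the 20 pairs, with a Pearson r of 0.58 and a Spearman rho of 0.48 across pairs that share the same 4 libraries. The members' median was 0.32 and the partners' 0.099. ICMT, which encodes the methyltransferase that finishes prenylated proteins, starts 268 bases from LINC00337 and was also lower, with 17119 and 17329 counts against 10879 and 10734 (log2 fold change -0.71, edgeR adjusted p 7.67e-14). EOLA2, listed as CXorf40B, had 1700 and 1759 counts against 2657 and 2672 (log2 fold change 0.59, edgeR adjusted p 2.97e-08), in the same direction as LINC00894 and smaller. EOLA1, listed as CXorf40A, was at 0.16 beside 1.20 for LINC00893. HEY1 was at -0.04 (edgeR adjusted p 0.84) beside 1.08 for LINC01607. The table does not say whether these partners share reads with the LINC rows.

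**Figure D5:**
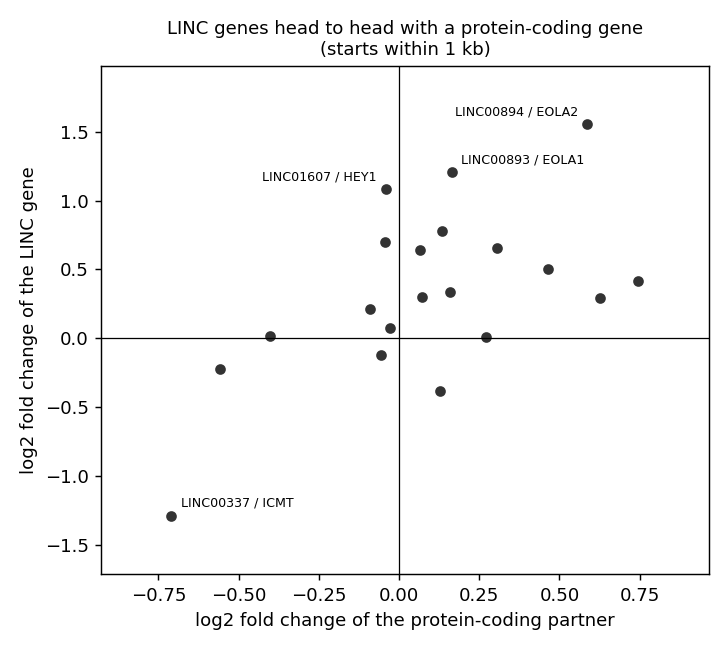
Log2 fold change of 20 LINC genes (vertical axis) against that of the protein-coding gene whose start lies within 1 kb on the opposite strand (horizontal axis), 1 point per pair, with the 4 pairs whose LINC gene is past the thresholds named. In 14 of the 20 pairs both values have the same sign, and LINC00894 and LINC00337 lie at the upper right and lower left.

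The nearest protein-coding gene, other than one the row itself matched, was set beside each member in the same way. Of the 74 members with such a gene within 10 kb, 59 had a tested neighbour, and the signs were the same in 33 of them, or 55.9%, with a Pearson r of 0.12 and a Spearman rho of 0.13. The neighbours' median log2 fold change was -0.04 and that of these members 0.24. TPST1 was the neighbour past both thresholds.

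Letters in the promoters and exons were counted over the members. Of the 135 members, 100 had a RefSeq promoter window. TGATGNAA, the core of the element bound by C/EBP and ATF factors, was found on either strand in 3 of the 100, those of LINC00116, LINC00623 and LINC00992, and in 4.46% of 27305 windows of all genes. The endoplasmic reticulum stress element was in 0 of the 100 and in 0.0916% of all windows, and TGACGTGG in 0 and in 0.927%. The 3 motifs can overlap one another in letters, and each was counted on its own. LINC00116 was lower, as given above, LINC00992 was at -0.60 (edgeR adjusted p 0.0448) and LINC00623 at 0.22 (edgeR adjusted p 0.232). GGACT occurred at a median of 1.05 per kb of exon in the members and 0.92 in all rows, and its density had a Pearson r of 0.07 with the log2 fold change across members. The higher members were longer, at a median of 5000.5 exonic bases, against 1685 for the 5 lower and 2674 for the rest. The Pearson r of log2 fold change with log10 exonic length was 0.21 across members and 0.029 across all rows, and the Spearman rho 0.21 and 0.089. These are correlations across genes of the same libraries, and genes are not replicates.

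Some members cannot be told apart well by their sequence. By 50-base words, 8 members shared at least 10% of their exonic words with another member. LINC01106 and LINC01123 shared 88.6% and 70.0% of theirs, and had log2 fold changes of 0.27 and 0.15 that did not pass. LINC01001 shared 30.5% of its words with LINC01002, and the log2 fold changes were 0.57 (edgeR adjusted p 1.60e-06) and 0.33 (edgeR adjusted p 0.00189). How reads with several alignments were counted is not stated, so these values are uncertain.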

How the data were processed

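Poly-A RNA of SKBR3 cells was sequenced from stranded libraries, as biological duplicates. The authors trimmed reads with Trimmomatic 0.39, aligned them with STAR 2.5.2a to hg38 with Ensembl 86 genes and counted them with featureCounts. The deposited table gives raw, unscaled counts by gene with the exons and exonic length of each. The strand setting and the treatment of reads with several alignments are not given in the sources used here. Control columns name the control, and the VIRMA-overexpressing columns, which carry a number, were assigned as the remaining group, checked by the VIRMA counts.

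All 14974 rows with a summed count of at least 200 were tested in edgeR 4.0.16 under R 4.3.3 (quasi-likelihood test, TMM, group as the only term, Benjamini-Hochberg over all of them). This floor equals that of the members and was set without the group labels. It is summed over both groups, so a row of low count can reach it through its higher group. LINC00950, with 31 and 25 counts in eGFP control and 90 and 70 in VIRMA-overexpressing cells, is such a member. The study required RPKM above 1 and names no number of libraries. That filter, read here as at least 2 libraries, was an alternative, since it would remove 61 of the 135 members. An SE is the log2 fold change over the root of its F statistic. CPM is scaled by TMM and given as mean ± SD, RPKM uses library totals and exonic length. The totals were 81446932 to 86375474 counts, and the biological coefficient of variation was 4.55%. An exact permutation test of 2 against 2 cannot go below a two-sided p of 0.33. The fit was tested on simulated data.

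Members and lists were chosen with earlier results of these data known. Named genes are up to 10 members with the largest rise and up to 10 with the largest fall past the thresholds (10 and 5 were found), the 8 with the highest mean RPKM, the members of both name lists (small proteins, described roles) and the 3 on each side of the floor. LINC01144, LINC01607, LINC01355, LINC00482, LINC00294, LINC00969, LINC00641, LINC00176, the pairs with shared sequence, the motif-bearing genes and the partner genes were named after their values were seen. Of 8 small-protein names 6 were in the table, and of 16 names with roles 14. Current symbols and windows came from RefSeq (GRCh38.p14) and positions of neighbours from GENCODE 44. Of 34009 rows with a symbol in it, 99.83% overlapped the same gene. The DESeq2 alternative used version 1.42.0 and limma-voom that of limma 3.58.1. Restriction to RefSeq lncRNA genes and the split by summed count were added after seeing the data. Replicate numbers are shared by the labels, but the deviations of same-numbered libraries from their group means correlated at 0.0466, so the numbers were not taken to pair the libraries.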

Additional observations from a re-analysis of the deposited data

How the results depend on the processing

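The counts of 14 higher and 5 lower members stood at 10 to 15 and 4 to 5 under several other settings. These were DESeq2 (14 and 5), limma-voom, 3 other scalings, 2 looser filters and 2 sets of members. The sets were the members that overlap no protein-coding gene other than their own match (10 and 5) and those given as lncRNA (13 and 4). LINC00950, which matches TMEM8B, stayed in the first set. With 1 library left out, the lone library of a group was assumed to vary like the other group. With the replicate number as a block, 13 and 5 were called and LINC00467 was lost. The RPKM filter left 8 and 1 of 74 members, because 10 of the 19 called genes were not tested. Of the 9 that passed it, 8 did so in 1 group alone. With no fold threshold the counts were 55 and 21, and tested against 2-fold they were 5 and 0. The median log2 fold change of 0.29 was 0.35 with upper-quartile factors and 0.39 with library totals, which also moved the median of all rows by 0.056 and 0.10, 0.38 under the RPKM filter, 0.27 with filterByExpr, 0.33 over the RefSeq lncRNA members and 0.27 to 0.29 with 1 library left out, against a spread between libraries of 0.024. With library totals LINC00493 turned to 0.020 and LINC01611 from -0.04 to 0.063, and with upper-quartile factors LINC01611 to 0.020. Without VIRMA-overexpressing replicate 2 LINC00511 turned to -0.016 (range -0.016 to 0.43 with 1 library left out). None of these passed before or after. The cause of these moves was not tested. Among single genes, 371 values under the other settings and 167 with 1 library left out had the sign and the call at adjusted p of the reported value, and 10 and 9 did not. The level of VIRMA kept its direction and call throughout. The SE of the members' log2 fold change ran from 0.0448 to 0.353, with a median of 0.199.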
